A study of Homo sapiens with 20 samples.

Results

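Vimentin and 7 other intermediate filament genes that are not keratins were followed through 2 human carcinoma cell lines. The 8 genes, of 23368 in each count table, were VIM, NES, SYNM, NEFL, NEFM, LMNA, LMNB1 and LMNB2, matched by symbol, and all had a row in every library. They were chosen by name around VIM, with earlier results of these data known. VIM itself was chosen by its direction in these libraries, higher with TGFβ and lower with the siRNA against KLF10 in both lines. VIM's values in those contrasts are therefore a description and carry no p-value, and VIM is left out of every count of filament genes called in them.

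Panc1 derives from a pancreatic ductal carcinoma and A549 from a lung adenocarcinoma. Each line was grown in 4 conditions: siRNA against KLF10 with TGFβ (siKLF10+TGFβ), siRNA against KLF10 alone (siKLF10), control siRNA with TGFβ (TGFβ), and control siRNA alone (siCont). All groups thus carried an siRNA, and TGFβ was added at 5 ng/ml for 72 h. Poly(A) RNA was sequenced from 3 libraries of each Panc1 group and 2 of each A549 group, lettered A to C by the submitters, making 20 libraries. Whether libraries of a group came from separate cultures is not given, so the spread behind each p-value may be technical.

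Intermediate filaments are rope-like polymers built from a large gene family whose members differ by cell type. VIM encodes vimentin, the main filament of mesenchymal cells and a standard marker of epithelial-to-mesenchymal transition, the change of shape and adhesion that TGFβ can induce in carcinoma cells. Nestin (NES) and synemin (SYNM) need a partner such as vimentin to enter a filament, and NEFL and NEFM encode the light and medium neurofilament subunits of neurons. The lamins (LMNA for lamins A and C, LMNB1 and LMNB2 for lamins B1 and B2) line the inside of the nuclear envelope. KLF10 is a zinc-finger transcription factor of the Krüppel-like family, induced by TGFβ, and the series asked what it does to the transition.

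Levels are CPM, a gene's count scaled to a fixed total of gene counts, with library sizes adjusted by TMM, a factor that offsets differences in RNA composition, and they are compared between samples of 1 gene, not between genes. Gene counts summed to 11152625 to 15571367 per Panc1 library and 6846761 to 19070551 per A549 library. KLF10, the target of the siRNA, measured 100 to 104 CPM in Panc1 siKLF10+TGFβ libraries and 77.1 to 82.9 CPM in siKLF10 libraries, against 188 to 207 CPM with TGFβ and 130 to 140 CPM in siCont. In A549 it measured 143 to 147 CPM in siKLF10+TGFβ and 103 to 108 CPM in siKLF10, against 174 to 175 CPM with TGFβ and 109 to 113 CPM in siCont. KLF10 did not pass the test between siKLF10 and siCont in A549 (log2 fold change −0.05 ± 0.0802 SE, adjusted p = 0.743), so these are called the libraries labelled siKLF10. A few epithelial transcripts were highest in siCont A of Panc1: KRT7 reached 26.5 CPM in siCont A and 10.4 and 11.2 CPM in siCont B and C, and ran from 2.88 to 6.41 CPM in the other 9 Panc1 libraries. The sum of the epithelial markers overlapped between these groups in Panc1, at 878 to 940 CPM in siKLF10 and 846 to 973 CPM in siCont. KRT8 was the largest part of that sum (496 CPM in siKLF10 and 465 CPM in siCont). Singly, 3 of 6 fell with siKLF10 and 0 rose, where 35.6% of all genes were called. Their median log2 fold change was −0.30, against 0 over all genes tested. In A549 siCont the sum was 4700 to 4866 CPM. Of the pancreatic markers, SOX9 stood at 235 CPM in Panc1 siCont, PDX1 at 0.0222 CPM, and CPA1, PRSS1, INS and GCG at 0 counts. The lung epithelial markers summed to only 1.93 to 1.97 CPM in A549 siCont. Haematopoietic markers were almost all CD68 (270 CPM in Panc1 siCont), with PTPRC, the common leukocyte antigen, at 0.0262 CPM.

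The start regions of VIM and of LMNB2, the member that went with VIM after siKLF10 in both lines, are shown because factors of the KLF10 family bind GC-rich elements and CACC elements. Each runs from 250 bases before to 50 after the gene start in RefSeq (build GRCh38.p14; the deposited counts were made on hg19). VIM lies at chr10:17227991-17228290 on the plus strand and LMNB2 at chr19:2456910-2457209 on the minus strand, both printed 5′ to 3′ along the gene, with matches to a GC box (GGGCGG) or a CACC box (CACCC) in capitals on either strand.
VIM: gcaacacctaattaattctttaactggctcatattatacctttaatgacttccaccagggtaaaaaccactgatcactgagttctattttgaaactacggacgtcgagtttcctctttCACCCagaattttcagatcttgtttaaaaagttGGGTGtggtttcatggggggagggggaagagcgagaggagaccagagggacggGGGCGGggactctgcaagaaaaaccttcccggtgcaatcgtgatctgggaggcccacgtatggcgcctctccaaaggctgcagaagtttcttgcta
LMNB2: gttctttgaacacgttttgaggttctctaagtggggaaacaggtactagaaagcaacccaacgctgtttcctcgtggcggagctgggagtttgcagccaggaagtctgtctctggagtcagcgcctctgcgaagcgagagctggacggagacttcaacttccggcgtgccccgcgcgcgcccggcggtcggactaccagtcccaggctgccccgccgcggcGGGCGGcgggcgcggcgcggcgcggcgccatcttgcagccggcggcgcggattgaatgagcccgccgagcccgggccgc

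VIM had 1 GC box, 46 bases before the gene start, and CACC boxes at 132 and 99 bases before it. LMNB2 had 1 GC box 29 bases before its start and no CACC box in this window. A GC box was found on either strand in 45% of 35116 promoter windows of that length and a CACC box in 59.9%, so neither match sets these genes apart. Neither window held an AP-1 site (TGANTCA, in 7.71% of windows), an E2 box (CAGGTG, the letters read by SNAI and ZEB repressors, in 20.6%) or a SMAD element (CAGACA, in 16.9%). GC bases made up 48% of the VIM window and 67.7% of the LMNB2 window, against a median of 58.7%. Of the 8 members, 6 had a start region in the RefSeq table; these matches are letters in a window and not binding sites.

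VIM was high in Panc1 and low in A549, and in both lines it was highest with TGFβ alone and lowest in the libraries labelled siKLF10. In Panc1, VIM measured 7070, 6399 and 6062 CPM in the siKLF10+TGFβ libraries and 3799, 3517 and 3673 CPM in siKLF10, against 13017, 12174 and 13632 CPM with TGFβ and 9486, 9612 and 8321 CPM in siCont. The 4 groups did not overlap: the order from the lowest was siKLF10, siKLF10+TGFβ, siCont and TGFβ, with the means of neighbouring groups further apart than the SD of either. VIM took 0.592 to 0.694% of all gene counts in siKLF10+TGFβ libraries and 0.367 to 0.398% in siKLF10 libraries, against 1.19 to 1.32% with TGFβ and 0.833 to 0.965% in siCont.

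In A549, VIM measured 1106 and 956 CPM in siKLF10+TGFβ A and B and 558 and 553 CPM in the libraries labelled siKLF10, against 1729 and 1764 CPM with TGFβ and 765 and 771 CPM in siCont. Again no groups overlapped, but the middle of the order was reversed: siKLF10+TGFβ libraries lay above siCont in A549 and below it in Panc1. All A549 libraries lay below all Panc1 libraries.

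**Figure D1:**
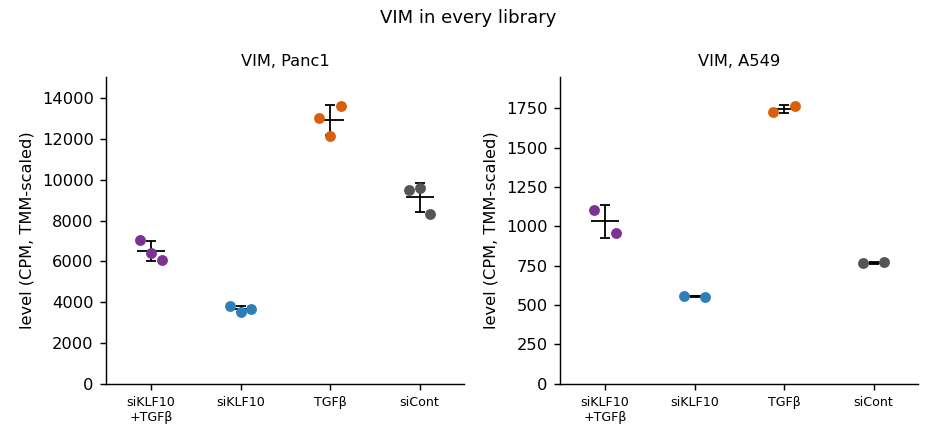
VIM level (CPM, TMM-scaled) of every library, as points, in Panc1 (left, 3 libraries a group) and A549 (right, 2 a group), with each group's mean and SD as bars and with separate linear axes from 0. TGFβ libraries reach 12174 to 13632 CPM in Panc1 and 1729 to 1764 CPM in A549, and siKLF10 libraries sit lowest in both panels.

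As fitted changes, siKLF10 moved VIM by −1.32 ± 0.0719 (log2 fold change ± SE) in Panc1 without TGFβ and by −0.98 ± 0.0714 with it. The libraries labelled siKLF10 moved VIM by −0.44 ± 0.0814 in A549 without TGFβ and by −0.79 ± 0.081 with it. TGFβ moved it by 0.49 ± 0.0709 in Panc1 and 1.26 ± 0.0818 in A549 after control siRNA, and by 0.83 ± 0.0712 and 0.91 ± 0.0817 in those lines after siKLF10. Leaving out any 1 library kept the Panc1 siKLF10 value between −1.38 and −1.28 and the A549 value between −0.45 and −0.43. Without siCont A the Panc1 value was −1.29. The A549 libraries labelled siKLF10 had VIM below siCont while their KLF10 level did not pass the test between the same groups, and the part of KLF10 in that difference was not tested. The labels name no siRNA sequence, so an effect of lower KLF10 and an effect of the siRNA on other transcripts cannot be told apart.

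The interaction subtracts the TGFβ effect seen with control siRNA from the one seen with siKLF10, and the rule fixes neither its size nor its sign. For VIM it was 0.34 ± 0.1 in Panc1 (edgeR quasi-likelihood test with Benjamini-Hochberg adjustment, adjusted p = 0.0588) and −0.35 ± 0.114 in A549 (adjusted p = 0.0785), so the sign differed between the lines and neither passed the threshold of 0.05. Both sat close to it. The Panc1 interaction was called without siCont C (adjusted p = 0.0179), without siKLF10+TGFβ C (adjusted p = 0.0365), with no filter (adjusted p = 0.0166) and with DESeq2 (adjusted p = 0.0268), and the A549 interaction was called without siKLF10+TGFβ A (−0.48, adjusted p = 7.54e-05). Over the leave-one-out alternatives the interaction lay within 0.27 and 0.40 in Panc1 and within −0.48 and −0.22 in A549.

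VIM also differed between the lines. It was 11.9-fold higher in Panc1 than in A549 siCont (log2 3.57 ± 0.0915, adjusted p = 7.01e-27). Line and library batch cannot be told apart in this or any other level compared between the lines. Reads that the counting placed in no gene feature made up 33.6 to 36.9% in Panc1 and 57.6 to 60.1% in A549. The siKLF10 effect on VIM without TGFβ was more negative in Panc1 than in A549 (difference of log2 fold changes −0.85 ± 0.111, adjusted p = 1.48e-06), and with TGFβ the difference did not pass the test (−0.23 ± 0.11, adjusted p = 0.147, although it was called at 0.0471 without Panc1 siKLF10+TGFβ A and at 0.0429 without A549 siKLF10+TGFβ B). The siKLF10 effect on KLF10 itself also differed between lines, by −0.68 ± 0.0996 without TGFβ and −0.69 ± 0.0971 with it. The TGFβ effect on VIM was smaller in Panc1 than in A549 (−0.68 ± 0.111, adjusted p = 9.12e-06). These line differences are taken from the same effects whose direction chose VIM, although the rule fixes neither their size nor their sign.

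Summed fibroblast markers were higher with TGFβ, as VIM was, and were not lower with siKLF10, but single markers differed. The sums stood at 34.0 to 38.6 CPM in Panc1 siKLF10+TGFβ and 14.6 to 15.1 CPM in siKLF10, against 28.3 to 32.0 CPM with TGFβ and 12.3 to 13.8 CPM in siCont. In A549 the sums were 15.2 to 15.5 CPM in siKLF10+TGFβ and 2.38 to 3.6 CPM in siKLF10, against 9.78 to 11.9 CPM with TGFβ and 1.35 to 1.63 CPM in siCont. The Panc1 sum was mostly the collagen gene COL3A1 (24.7 CPM in siKLF10+TGFβ, against 25.3 CPM with TGFβ). With siKLF10+TGFβ against TGFβ in Panc1, FAP fell (−0.91 ± 0.344, adjusted p = 0.0365), as VIM was lower there, and PDGFRB rose (2.17 ± 0.186). The part of these markers in the VIM values was not tested. DCN, which marks fibroblasts, averaged 0.0973 CPM in Panc1 siCont and 0.0820 CPM in A549 siCont. In bulk RNA, more cells with vimentin and more VIM RNA per cell cannot be told apart.

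The genes whose log2(CPM + 1) followed VIM most closely in both lines were sought among 9913 genes, taking the smaller of the Pearson correlations over 12 Panc1 and 8 A549 libraries. They were C12orf75 (r = 0.99 in Panc1 and 0.97 in A549), KLF10 (0.97 and 0.97), TCP11L1 (0.96 and 0.98), the cationic amino acid transporter gene SLC7A1 (0.98 and 0.96) and APPL2, which encodes an endosomal adaptor (0.96 and 0.96). VIM was chosen for being higher with TGFβ and lower with siKLF10, and KLF10 is the target of that siRNA. All of these genes share those directions in their group means, so their places are in part fixed by the choice. Across libraries the points share their groups, so these values describe 4 conditions rather than 12 or 8 separate observations. Among the other members LMNB2 was nearest (0.92 and 0.70), LMNA (0.23 and 0) and LMNB1 (0.65 and −0.06) were not alike in A549, and SYNM ran the opposite way (−0.56 and −0.88).

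**Figure D2:**
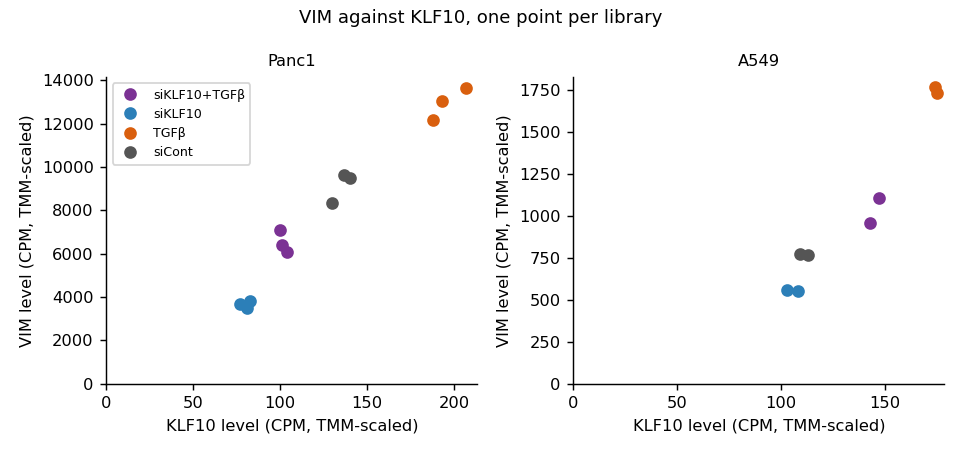
VIM level against KLF10 level (both CPM, TMM-scaled, linear axes from 0), 1 point per library, coloured by group, in Panc1 (left) and A549 (right). In Panc1 the groups order alike on both axes, while in A549 siKLF10 libraries (KLF10 103 to 108 CPM) and siCont libraries (109 to 113 CPM) stand side by side on the KLF10 axis and apart on the VIM axis.

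Of the lamins, LMNB2 was lower with siKLF10 in both lines, with and without TGFβ. In Panc1, LMNB2 measured 130, 118 and 107 CPM in the siKLF10+TGFβ libraries and 106, 94.4 and 97.2 CPM in siKLF10, against 251, 253 and 249 CPM with TGFβ and 213, 234 and 244 CPM in siCont. Every library with siKLF10 lay far below every library without it. LMNB2 fell 2.32-fold without TGFβ (log2 −1.21 ± 0.0724, adjusted p = 2.38e-11) and by 1.07 ± 0.0716 on the log2 scale with it (adjusted p = 1.3e-10).

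In A549, LMNB2 measured 144 and 167 CPM in siKLF10+TGFβ and 159 and 140 CPM in the libraries labelled siKLF10, against 283 and 300 CPM with TGFβ and 231 and 224 CPM in siCont. The siKLF10 libraries with and without TGFβ overlapped, and both lay below the control siRNA libraries. LMNB2 fell by 0.58 ± 0.0832 without TGFβ (adjusted p = 3.89e-05) and by 0.94 ± 0.0827 with it (adjusted p = 3.43e-08). Without TGFβ this fall, like that of VIM, came with KLF10 at 103 to 108 CPM in siKLF10, against 109 to 113 CPM in siCont, and the part of KLF10 in it was not tested.

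LMNB2 and LMNB1 encode the B-type lamins, which stay bound to the nuclear membrane, and they parted after siKLF10. In Panc1, LMNB1 measured 204, 221 and 212 CPM in siKLF10+TGFβ and 176, 185 and 176 CPM in siKLF10, against 222, 230 and 200 CPM with TGFβ and 185, 196 and 209 CPM in siCont. Its siKLF10 changes of −0.14 (adjusted p = 0.0994) and, with TGFβ, −0.02 (adjusted p = 0.787) missed the threshold. The ratio of LMNB2 to LMNB1 counts was 0.559 ± 0.0711 in Panc1 siKLF10+TGFβ and 0.556 ± 0.0458 in siKLF10, against 1.16 ± 0.0759 with TGFβ and 1.17 ± 0.0231 in siCont (SD, n = 3 each). In A549 the ratio was 1.69 ± 0.0263 in siKLF10+TGFβ and 1.42 ± 0.0468 in siKLF10, against 2.57 ± 0.0636 with TGFβ and 1.77 ± 0.0318 in siCont (SD, n = 2 each). The ratio was lower with siKLF10 in both lines, and it was higher with TGFβ in A549 but level in Panc1.

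LMNB1 was lower in A549 libraries labelled siKLF10. It measured 84.1 and 99.7 CPM in siKLF10+TGFβ and 110 and 101 CPM in siKLF10, against 112 and 115 CPM with TGFβ and 129 and 129 CPM in siCont. The fall was 0.33 ± 0.0864 with TGFβ (adjusted p = 0.00684, lost without TGFβ B at 0.0707) and 0.26 ± 0.0856 without it (adjusted p = 0.0355). The second call did not survive DESeq2 (adjusted p = 0.0934) or leaving out any of 6 A549 libraries, siCont A or B, TGFβ A or B and siKLF10 A or B (adjusted p = 0.0567 to 0.248). In Panc1 LMNB1 rose with TGFβ after siKLF10 (0.25 ± 0.0632, adjusted p = 0.00303), but without scaling factors the change was 0.15 (adjusted p = 0.0624).

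Proliferation genes moved with LMNB1 in some comparisons and not in others. Of 8 such genes all 8 rose in Panc1 with siKLF10+TGFβ against siKLF10, where 45.0% of all genes were called, with a median log2 fold change of 0.35, against −0.01 over all genes tested. In A549, 6 of 8 fell with siKLF10+TGFβ against TGFβ, where 28.3% of genes were called (median −0.54, against 0.01 over all genes tested). With siKLF10 against siCont in A549, where LMNB1 fell, 0 of 8 fell and 1 rose (19.5% of genes called). LMNB1 was not called where 7 of 8 fell with siKLF10+TGFβ against siKLF10 in A549 (53.3% of genes called), 4 fell with TGFβ in A549 (47.7%) or 4 fell and 1 rose with siKLF10 in Panc1 (35.6%). Examples of the 6 falls under TGFβ were the spindle checkpoint kinase BUB1 (−0.65 ± 0.0836) and BIRC5, which encodes survivin (−0.64 ± 0.0964). The part of proliferation in the LMNB1 values was not tested.

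LMNA went down with TGFβ and with siKLF10 in Panc1, by about the same amount each. It measured 304, 257 and 238 CPM in siKLF10+TGFβ and 410, 361 and 378 CPM in siKLF10, against 358, 384 and 384 CPM with TGFβ and 500, 559 and 544 CPM in siCont. The TGFβ and the siKLF10 libraries overlapped each other, and both lay between siKLF10+TGFβ and siCont. LMNA fell by 0.52 ± 0.0759 with TGFβ (adjusted p = 1.23e-05) and by 0.48 with siKLF10 (adjusted p = 4.13e-05), and by 0.53 ± 0.0766 and 0.49 ± 0.0765 for the same agents given on top of the other. The interaction was −0.01 (adjusted p = 0.98).

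In A549, LMNA measured 343 and 335 CPM in siKLF10+TGFβ and 459 and 408 CPM in siKLF10, against 433 and 445 CPM with TGFβ and 409 and 402 CPM in siCont. Here it was the combination alone that lay lowest. LMNA fell by 0.40 ± 0.0749 with siKLF10+TGFβ against TGFβ (adjusted p = 0.000364) and by 0.34 ± 0.0748 against siKLF10 (adjusted p = 0.000654), while siKLF10 against siCont gave 0.12 (adjusted p = 0.27). The interaction was −0.53 ± 0.106 (adjusted p = 0.00368; 0.0514 without siKLF10 A). TGFβ against siCont gave 0.19 ± 0.0747 (adjusted p = 0.0436), a call lost without any of the 4 libraries compared (adjusted p = 0.0975 to 0.207), with no filter (0.076), with DESeq2 (0.0514) and with no scaling factors (0.2). The lines differed in the TGFβ effect on LMNA (−0.63 ± 0.116, adjusted p = 6.72e-05) and in the siKLF10 effect without TGFβ (−0.58 ± 0.116, adjusted p = 0.000563), both more negative in Panc1.

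**Figure D3:**
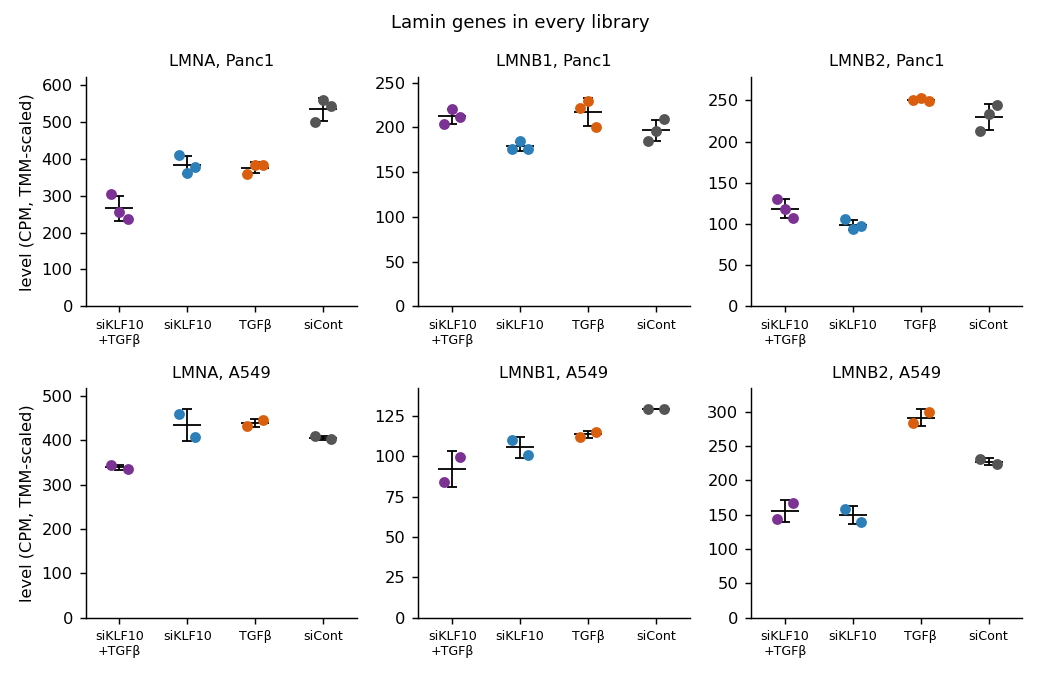
Levels (CPM, TMM-scaled) of LMNA, LMNB1 and LMNB2 in every library of Panc1 (top, 3 a group) and A549 (bottom, 2 a group), as points with the mean and SD of each group; each panel has its own linear axis from 0. LMNB2 libraries with siKLF10 lie at 94.4 to 130 CPM in Panc1, below the 213 to 253 CPM of those without it, and LMNA is lowest with siKLF10+TGFβ in both lines.

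Of the members other than lamins, SYNM, which links vimentin filaments to adhesion sites, went against VIM in A549. It measured 45.7 and 55.7 CPM in siKLF10+TGFβ and 97.3 and 84.0 CPM in siKLF10, against 48.4 and 50.6 CPM with TGFβ and 65.5 and 67.4 CPM in siCont. The libraries labelled siKLF10 stood above all others, and the groups with TGFβ overlapped each other. SYNM rose with siKLF10 (0.48 ± 0.0958, adjusted p = 0.00115; 0.37 and adjusted p = 0.0605 without siKLF10 A) and fell with TGFβ (−0.35 ± 0.101, adjusted p = 0.00625; lost at 0.0573 without siCont B and at 0.0891 without TGFβ A). It fell further with siKLF10+TGFβ against siKLF10 (−0.82 ± 0.0969, adjusted p = 3.07e-07). Its interaction of −0.46 ± 0.14 missed the threshold (adjusted p = 0.0505) and was called under several alternatives, such as no filter (adjusted p = 0.031).

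In Panc1, SYNM lay between 195 and 230 CPM in all 12 libraries and passed no test. Its TGFβ effect differed between the lines (0.40 ± 0.123, adjusted p = 0.0121), as did its siKLF10 effect without TGFβ (−0.38 ± 0.119, adjusted p = 0.0225). The first was lost with no filter (adjusted p = 0.0798) and without A549 TGFβ A (0.075), and the second without A549 siCont A, siCont B or siKLF10 A or Panc1 siKLF10 A (0.0535 to 0.23).

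NES, which encodes the progenitor filament nestin, was low in both lines, and without TGFβ it moved with siKLF10 in opposite directions. In Panc1 it measured 3.99, 4.17 and 3.56 CPM in siKLF10+TGFβ and 1.63, 1.66 and 1.28 CPM in siKLF10, against 3.57, 3.28 and 3.63 CPM with TGFβ and 3.45, 2.04 and 3.0 CPM in siCont. The siKLF10 libraries lay below all others. NES fell with siKLF10 (−0.90 ± 0.234, adjusted p = 0.00454; −0.75 and adjusted p = 0.0287 without siCont A) and rose with siKLF10+TGFβ against siKLF10 (1.36 ± 0.224, adjusted p = 3.38e-05). With siKLF10+TGFβ against TGFβ its change was 0.17 ± 0.19 and did not pass the test (adjusted p = 0.503). The interaction of 1.07 ± 0.303 (adjusted p = 0.0453) was lost with DESeq2 (0.0827), with no scaling factors (0.0561) and without any 1 library other than siCont B (0.0504 to 0.139).

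In A549, NES measured 1.88 and 2.84 CPM in siKLF10+TGFβ and 3.44 and 2.77 CPM in the libraries labelled siKLF10, against 0.690 and 1.15 CPM with TGFβ and 0.520 and 0.897 CPM in siCont. Both siKLF10 groups lay above both control siRNA groups. NES rose by 2.20 ± 0.396 without TGFβ (adjusted p = 0.000431) and by 1.44 ± 0.411 with it (adjusted p = 0.0116), the second lost with DESeq2 (0.0915), without TGFβ A (1.05 and 0.211) and without siKLF10+TGFβ B (1.08 and 0.144). The siKLF10 effect differed between lines by −3.08 ± 0.452 without TGFβ (adjusted p = 8.76e-06). With TGFβ the difference was −1.32 ± 0.445 (adjusted p = 0.0339), lost with DESeq2 (0.0824) and without any of 5 libraries, Panc1 TGFβ A or C or siKLF10+TGFβ C or A549 TGFβ A or siKLF10+TGFβ B (0.0521 to 0.306).

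NEFL, the neurofilament subunit that assembly depends on, was an A549 transcript here. It measured 51 and 57.6 CPM in siKLF10+TGFβ and 57.3 and 51.9 CPM in the libraries labelled siKLF10, against 37.4 and 39.6 CPM with TGFβ and 33.8 and 30.2 CPM in siCont. The siKLF10 groups overlapped each other and lay above both control siRNA groups. NEFL rose with siKLF10 (0.80 ± 0.101, adjusted p = 8.63e-06; 0.48 ± 0.101 with TGFβ, adjusted p = 0.00119) and with TGFβ after control siRNA (0.33 ± 0.105, adjusted p = 0.0128; lost at 0.139 without siCont B and at 0.0924 without TGFβ B), but not after siKLF10 (0.01, adjusted p = 0.937).

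In Panc1, NEFL had 15, 6 and 3 counts in its siCont libraries and 0 counts in the other 9 libraries. A count of 0 over a group allows up to 0.0735 CPM with TGFβ and 0.0785 CPM with siKLF10, at 3 counts over the group and for counting error only. Against those floors NEFL was at least 7.89-fold lower with TGFβ and at least 7.39-fold lower with siKLF10 than in siCont, bounds that became 4.41-fold and 4.13-fold without siCont A. The library with the most NEFL counts, siCont A, also had the most KRT7 and EPCAM (EPCAM 12.2 CPM in A, 3.93 CPM in B and 5.73 CPM in C), but B had more NEFL counts than C and less of both. The part of those epithelial transcripts in the NEFL values was not tested. Between lines, NEFL was at least 719-fold lower in Panc1 than in A549 with siKLF10+TGFβ and at least 521-fold lower with TGFβ. Line and library batch cannot be told apart in these bounds.

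NEFM, the medium subunit that joins NEFL in axons, had 0 counts in all 12 Panc1 libraries. In A549 it had 12 and 15 counts in siKLF10+TGFβ and 20 and 10 in siKLF10, against 4 and 1 with TGFβ and 11 and 6 in siCont. On the CPM scale the siKLF10 groups lay above their controls without overlap, but no A549 change of NEFM passed the test (siKLF10 1.23, adjusted p = 0.0626; siKLF10 with TGFβ 1.65, adjusted p = 0.0594; TGFβ −1.14, adjusted p = 0.189). The siKLF10 change was called, at adjusted p = 0.0362, when the fit held only the groups compared, and at 0.0444 and 0.0437 without siKLF10+TGFβ A or B.

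Neuronal markers were measured beside these genes. Their sum was 100 to 117 CPM in A549 siKLF10+TGFβ and 112 to 120 CPM in siKLF10, against 42.0 to 47.6 CPM with TGFβ and 86.3 to 88.3 CPM in siCont. Of 6 neuronal markers 4 were tested, and 2 rose with siKLF10 in A549, where 19.5% of all genes were called. Among them was SYT1, which encodes the synaptic vesicle protein synaptotagmin (1.42 ± 0.126). SYT1 averaged 46.5 CPM in A549 siKLF10 and 17.7 CPM in siCont. SNAP25 averaged 40.7 CPM in A549 siKLF10, against 47.3 CPM in siCont. In Panc1 the neuronal sum was 183 to 213 CPM in siKLF10+TGFβ and 112 to 129 CPM in siKLF10, against 151 to 162 CPM with TGFβ and 93.9 to 99.1 CPM in siCont, with NEFL and NEFM at or near 0. Most of that sum was SYT1 (185 CPM in siKLF10+TGFβ and 78.3 CPM in siCont). With siKLF10 against siCont in Panc1, 2 of 3 tested markers rose and SNAP25 fell (−0.50 ± 0.154), where 35.6% of all genes were called. The part of the neuronal markers in the NEFL and NES values was not tested.

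**Figure D4:**
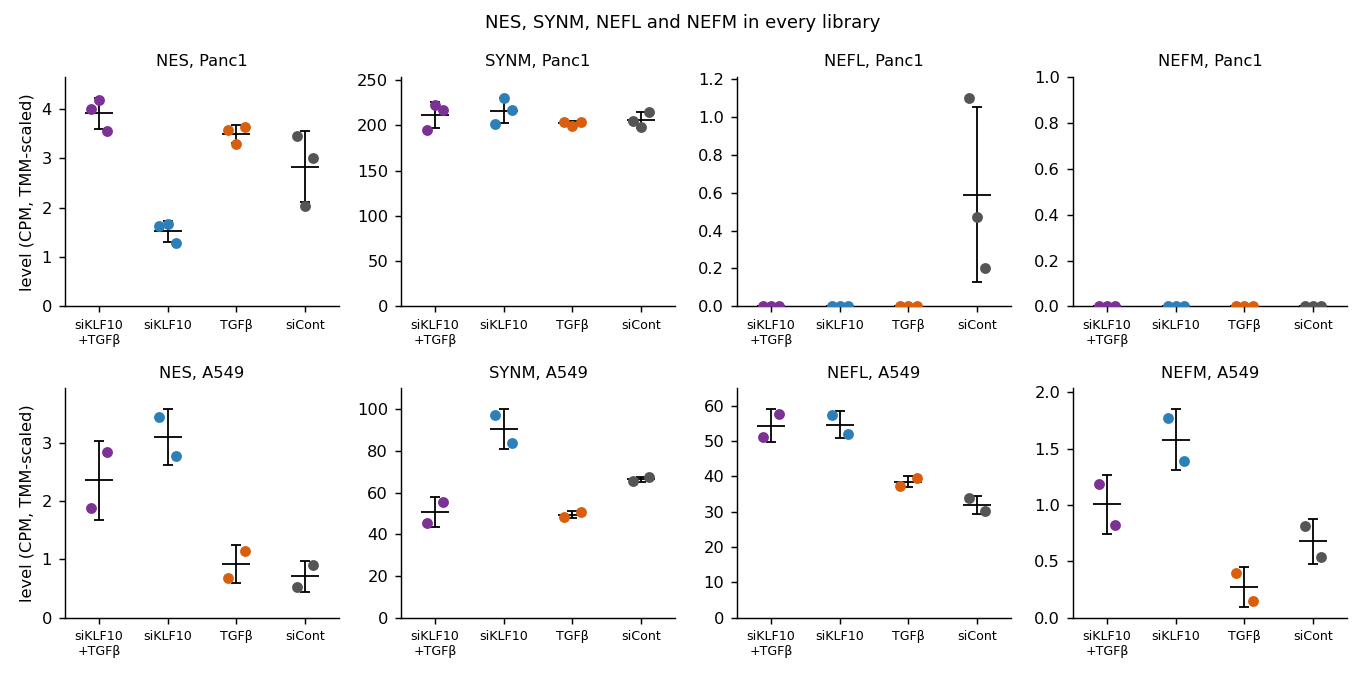
Levels (CPM, TMM-scaled) of NES, SYNM, NEFL and NEFM in every library of Panc1 (top, 3 a group) and A549 (bottom, 2 a group), as points with the mean and SD of each group; each panel has its own linear axis from 0. SYNM is level across Panc1 at 195 to 230 CPM and highest with siKLF10 in A549, and NEFM is at 0 in every Panc1 library.

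Of the remaining 7 non-keratin intermediate filament genes, DES, GFAP, NEFH and BFSP2 were too low to test in either line. INA, which encodes the neuronal filament protein internexin, was another A549 transcript that rose with siKLF10: 15.6 and 14.7 CPM in siKLF10+TGFβ and 41.7 and 39.5 CPM in siKLF10, against 11.0 and 9.92 CPM with TGFβ and 17.8 and 16.5 CPM in siCont. INA rose by 1.27 ± 0.116 with siKLF10 (adjusted p = 9.57e-08) and fell by 0.63 ± 0.139 with TGFβ, and its interaction was −0.78 ± 0.184 (adjusted p = 0.0117). BFSP1, a filament protein of the eye lens (filensin), rose with siKLF10 in Panc1, to 12.9, 13.5 and 11.5 CPM, against 5.28, 6.60 and 6.00 CPM in siCont (1.08 ± 0.141, adjusted p = 3.49e-06). BFSP1 fell with TGFβ in Panc1 (−0.67 ± 0.168) and in A549 (−0.54 ± 0.177). PRPH, the last of the 7, averaged 1.5 CPM in A549 siKLF10 and 1.5 CPM in siCont. With siKLF10 in A549, 1 of 3 tested genes of this list was called, against 19.5% of all genes.

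The share of members called was read against the share of all genes called in the same comparison. Without TGFβ, 3 of 5 members fell with siKLF10 in Panc1 (LMNB2, LMNA and NES), where 35.6% of tested genes were called. In A549, 3 of 7 rose (NES, NEFL and SYNM) and 2 fell (LMNB2 and LMNB1), against 19.5% of tested genes called. With TGFβ, 2 of 5 fell with siKLF10 in Panc1 (background 41.7%), and 2 of 7 rose and 3 fell in A549 (background 28.3%). With so few members, chosen with earlier results of these data known, these shares are counts and no more, and VIM is not in them.

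TGFβ after control siRNA moved fewer of them. In Panc1 1 of 5 members fell, LMNA, where 29.0% of tested genes were called. In A549 3 of 7 rose (LMNB2 by 0.43 ± 0.0817, NEFL and LMNA) and SYNM fell, where 47.7% were called. After siKLF10, 3 of 5 rose (NES, LMNB1 and LMNB2) and LMNA fell in Panc1, against 45.0% of tested genes called. The rise of LMNB2 there was 0.26 (adjusted p = 0.00663) and 0.16 without scaling factors (adjusted p = 0.0831). In A549 2 of 7 fell, LMNA and SYNM, against 53.3%. The interaction was called for 1 of 6 members in Panc1 and 1 of 8 in A549, VIM included, against 4.42% and 6.49% of tested genes.

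Between lines, 5 of the 6 members tested (VIM, NES, SYNM, LMNA and LMNB2) had a more negative siKLF10 effect in Panc1 than in A549 without TGFβ, where 17.2% of genes were called. With TGFβ 1 of 6 differed (NES), against 19.8% of genes. The TGFβ effect differed for 4 of 6 members (VIM, LMNA, SYNM and LMNB1), against 31.0% of genes. VIM, chosen by the direction of these effects in each line, is in these counts. The LMNB1 difference (0.33 ± 0.112, adjusted p = 0.0237) was lost with RLE size factors (0.0539), DESeq2 (0.0584) or no filter (0.193) and without any of Panc1 siCont A, TGFβ A or TGFβ B or the 4 A549 libraries of siCont and TGFβ (0.0526 to 0.0933). In siCont, 5 of 7 members were higher in Panc1 and NEFL was lower (log2 −5.76, and −6.58 without Panc1 siCont A), while LMNB2 stood at 0.02 (adjusted p = 0.854), and 81.9% of all tested genes differed between the lines. These siCont differences do not separate line from library batch.

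**Figure D5:**
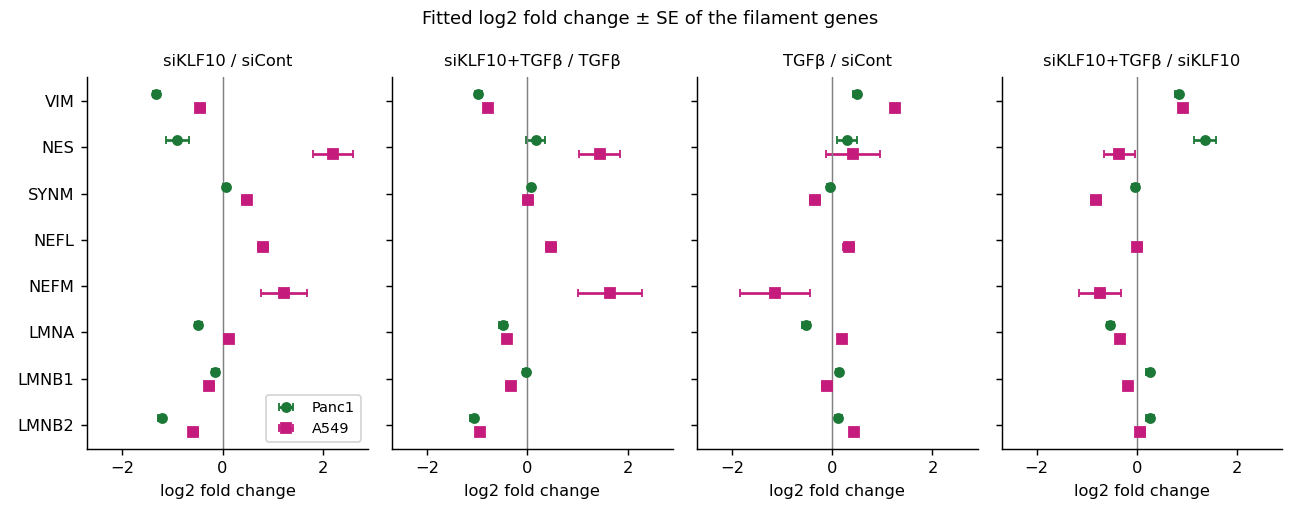
Fitted log2 fold change ± SE of each member (rows) in 4 comparisons (panels) for Panc1 (green circles) and A549 (magenta squares), with a grey line at 0; NEFL and NEFM are not drawn for Panc1, where a group had at most 3 counts. LMNB2 lies left of 0 with siKLF10 in both lines, at −1.21 and −1.07 in Panc1 and −0.58 and −0.94 in A549, while NES lies at −0.90 in Panc1 and 2.20 in A549 without TGFβ.

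The keratins, the filaments of epithelial cells, were listed beside the members. With TGFβ all 4 simple epithelial keratins tested in Panc1 fell, among them KRT19 (−1.93 ± 0.0753) and KRT8 (−0.88 ± 0.0832), and KRT7 (−1.74 ± 0.407), which was highest in siCont A, where 29.0% of all genes were called. In A549, KRT8 (−1.41 ± 0.0866) and KRT18 (−1.34 ± 0.128) fell and KRT7 rose (0.90 ± 0.075), 3 of 5 tested, against 47.7% of all genes. With siKLF10+TGFβ against TGFβ in Panc1, where VIM was lower, KRT8 (0.96 ± 0.0833) and KRT18 (0.74 ± 0.0635) rose and KRT19 fell (−0.49 ± 0.0798). In A549, KRT8 rose by 0.38 ± 0.0854 and KRT7 fell by 0.45 ± 0.0745. With siKLF10 alone 2 of 4 keratins fell in Panc1, KRT7 and KRT19, near the 35.6% of all genes called, and 0 of 5 were called in A549, against 19.5%.

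Plakins are the large linkers that tie filaments to junctions, actin and the nucleus. With TGFβ 5 of 7 fell and 1 rose in Panc1, against 29.0% of all genes called, led by EPPK1 (−1.91 ± 0.242), PPL, which encodes periplakin (−1.69 ± 0.0599), and EVPL (−0.97 ± 0.0789). EPPK1 was among the transcripts highest in siCont A (8.51 CPM, against 5.26 and 5.80 CPM in siCont B and C). In A549 PPL fell (−2.53 ± 0.129) while plectin (PLEC, 0.89 ± 0.0828), a binding partner of vimentin, and MACF1 (0.61 ± 0.0788) rose. With siKLF10 5 of 7 fell and 1 rose in Panc1, among them DSP, which encodes desmoplakin (−0.56 ± 0.0993), and 2 rose in A549, PPL (0.93 ± 0.0961) and PLEC (0.49 ± 0.0824), where 35.6% of all genes were called in Panc1 and 19.5% in A549.

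At the nuclear envelope, SUN2, which joins the lamina to the cytoskeleton, went the way of LMNB2 in Panc1. SUN2 fell with siKLF10 by 0.65 ± 0.0919 without TGFβ and by 0.78 ± 0.0911 with it. In A549 it rose by 0.36 ± 0.0806 without TGFβ and fell by 0.42 ± 0.0789 with it, with an interaction of −0.78 ± 0.113 (adjusted p = 2e-04). Of 13 envelope partners of lamins tested, 3 rose and 1 fell with siKLF10 in Panc1 (median 0.01), and 2 rose and 1 fell in A549 (median 0.10), both against 0 over all genes tested, of which 35.6% and 19.5% were called in those lines. LBR, a receptor that binds B-type lamins, fell with TGFβ in A549 (−0.51 ± 0.078).

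Of the enzymes that process prelamin A, ZMPSTE24 rose with siKLF10 in Panc1 by 0.28 ± 0.0525 without TGFβ and 0.35 ± 0.0526 with it, where LMNA was lower. ICMT, which methylates the farnesylated tail, fell with siKLF10 in Panc1 (−0.24 ± 0.0605) and in A549 (−0.40 ± 0.0891). In all, 1 rose and 1 fell of 4 tested with siKLF10 in Panc1, and 1 and 1 of 5 in A549. Among 11 kinases and phosphatases that act on filaments, PRKCA, a protein kinase C, rose with TGFβ in Panc1 (0.53 ± 0.0542). In A549, PRKCA averaged 177 CPM with TGFβ, against 224 CPM in siCont. With TGFβ, 4 of the 11 rose and 0 fell in Panc1, where 29.0% of all genes were called. In A549 4 rose and 2 fell, where 47.7% were called. With siKLF10, 4 rose and 2 fell in Panc1, the mitotic kinases AURKB (−0.41 ± 0.0946) and PLK1 (−0.35 ± 0.082) among the falls, and 0 of 11 were called in A549. In these siKLF10 comparisons 35.6% of all genes were called in Panc1 and 19.5% in A549.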

How the data were processed

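Each library's deposited file holds whole-number read counts per gene. The authors made these counts with TopHat, Bowtie2, HTSeq 0.6.0 and DESeq2 on hg19, per the submitters' processing notes, which give no roles. Libraries were made with a directional poly(A) kit, per the labels' protocols. No source used here gives the strand setting used for counting. VIM reads therefore cannot be told apart from those of its antisense partner VIM-AS1, which had no row under that name. The deposited tables of the authors' own comparisons were not used. Each table has 23368 genes and 5 summary lines, which name no gene and were left out. Reads that the counting placed in no gene feature made up 33.6 to 36.9% in Panc1 and 57.6 to 60.1% in A549. Replicate pairs differed by more than sampling noise (chi-square per degree of freedom 2.06 to 12.5).

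Counts were fitted with edgeR 4.0.16 in R 4.3.3: filterByExpr (minimum count 10, minimum total 15), TMM scaling (factors 0.96 to 1.05), a group-means model over the 4 groups of a line with 8 (Panc1) and 4 (A549) residual degrees of freedom, and a joint model of 20 libraries (12) for differences between lines. The quasi-likelihood test was adjusted by Benjamini-Hochberg over 13218, 14124 and 15058 genes, and an adjusted p under 0.05 was called. The SE is the log2 fold change divided by the square root of F. Levels are CPM, mean ± SD. Members with at most 3 counts over a compared group (NEFL and NEFM in Panc1) were left out of counts of calls, a rule chosen after seeing the data, and are given as bounds. The fitting script was tested on simulated data.

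The members and gene lists were chosen with earlier results of these data known. All members and KLF10 were named in every comparison, with up to 3 called genes per list of the largest change and a mean of at least 1 CPM, of which fewer are printed, and the 5 genes most like VIM at a mean of at least 5 CPM in each line. Alternatives were RLE size factors, no filter, DESeq2 1.42.0, a replicate block, fits of only the compared groups, each library left out, and no scaling factors, the last added after seeing the data.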

Additional observations from a re-analysis of the deposited data

Results flagged for a closer look

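Each result here is a difference of effects that passed its own test (edgeR quasi-likelihood, Benjamini-Hochberg adjusted), between the lines (Panc1 minus A549) or as an interaction within a line. VIM was chosen by the direction of the effects that are compared.

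Between lines, the TGFβ effect differed for VIM (−0.68 ± 0.111, adjusted p = 9.12e-06), LMNA (−0.63 ± 0.116, adjusted p = 6.72e-05), SYNM (0.40 ± 0.123, adjusted p = 0.0121) and LMNB1 (0.33 ± 0.112, adjusted p = 0.0237). Of 25 alternatives, 2 lost the SYNM call and 10 the LMNB1 call. The siKLF10 effect without TGFβ differed for NES (−3.08 ± 0.452, adjusted p = 8.76e-06), VIM (−0.85 ± 0.111, adjusted p = 1.48e-06), LMNB2 (−0.61 ± 0.119, adjusted p = 0.000416), LMNA (−0.58 ± 0.116, adjusted p = 0.000563) and SYNM (−0.38 ± 0.119, adjusted p = 0.0225, lost in 4 of 25). KLF10 itself differed in that effect by −0.68 ± 0.0996 (adjusted p = 8.09e-06), and its part in the other values was not tested. With TGFβ the siKLF10 effect differed for NES (−1.32 ± 0.445, adjusted p = 0.0339, lost in 7 of 25).

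Within lines, the TGFβ effect after siKLF10 differed from that after siCont for NES in Panc1 (1.07 ± 0.303, adjusted p = 0.0453) and for LMNA in A549 (−0.53 ± 0.106, adjusted p = 0.00368). The first was lost under most alternatives and the second without siKLF10 A.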

How the results depend on the processing

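Of 1708 values that 95 results took under the alternatives, 1616 kept their side of the threshold, or moved by less than 1 SD where there was no test. Values near 0 that were called in neither fit could change sign and still count as kept. SYNM with siKLF10+TGFβ against TGFβ in A549, at 0.02, reached −0.12 in this way. A further 63 lost and 24 gained a call, and 5 values of VIM moved by more than the spread between replicates. Of values called in either fit, and of the untested VIM values, 0 reversed. Leaving out 1 of 2 A549 libraries assumes that the lone library varies like the other groups.

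The count of members called in the Panc1 interaction (1) was 2 with no filter, 0 with the replicate block, 0 with no scaling factors and 0 to 1 with a library left out. In the A549 interaction (1) it was 2 with no filter, 2 with the replicate block, 2 with no scaling factors and 0 to 3 with a library left out. The count for siKLF10+TGFβ against siKLF10 in Panc1 (4) was 2 with no scaling factors. For the line difference of the siKLF10 effect with TGFβ (1) it was 0 with DESeq2, 0 with the replicate block, 2 with no scaling factors and 0 to 2 with a library left out. With a library left out, the counts ran from 1 to 2 for TGFβ in Panc1, 1 to 4 for TGFβ in A549, 3 to 6 for siKLF10 in A549, and 2 to 4 for the line difference of the TGFβ effect. The replicate block ended the NES interaction call in Panc1 (adjusted p = 0.0559) and the NES line difference with TGFβ (0.0502), and it gave calls for NEFM with siKLF10 under TGFβ (1.77, adjusted p = 0.0356) and for the SYNM interaction (0.0463), both in A549. Same-letter libraries correlated at −0.26 to 0.45 over 18 pairs in Panc1 (4 best with their own letter) and −0.03 to 0.17 over 12 in A549 (10 best). With 2 libraries a group, both letters of an A549 comparison give the same value, so these 12 are not separate. The letters were not taken to pair the samples, although the A549 values do not exclude pairing there.

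Over all genes, calls for siKLF10 in A549 numbered 2759, against 1725 with DESeq2 and 1326 to 4040 with a library left out. For the A549 interaction they numbered 916, against 559 and 379 to 2684. With a library left out they ran from 349 to 1035 for the Panc1 interaction (584), 2237 to 5409 for siKLF10 with TGFβ in A549 (3996), and, for line differences, 1570 to 2840 for siKLF10 (2597) and 1895 to 3321 for siKLF10 with TGFβ (2979). Without scaling factors the median of all genes shifted by at most 0.10 in size, for siKLF10+TGFβ against siKLF10 in Panc1, and 32.8% of its calls were higher, against 50.4% with TMM; for siKLF10 in Panc1 these shares were 64.3% and 48.6%. Depth limits NES, NEFM and Panc1 NEFL, which rest on few counts.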
